A study of Nicotiana benthamiana with 28 samples.

Results

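The response to XEG1 was examined in seedlings of the Δ90-95/Q786AK791A line, an rxeg1 knockout of Nicotiana benthamiana that carries the construct pRXEG1:RXEG1synΔ90-95/Q786AK791AΔCT. Its 4 libraries, 2 treated with XEG1 and 2 with mock, were taken by their labels from the 28 libraries of the study. Of the 59814 genes listed, the 36206 that averaged 1 TPM or more over these 4 libraries were tested. A band of 447 genes lay just inside that limit, with means of 1 to under 1.1 TPM, and 532 lay just outside it, with means of 0.9 to under 1 TPM. TPM is a transcript abundance per unit of gene length that is scaled to the same total in each library.

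XEG1 is a glycoside hydrolase that the oomycete Phytophthora sojae secretes while it infects plants, and it acts on xyloglucan in the plant cell wall. RXEG1 is the leucine-rich-repeat receptor-like protein with which N. benthamiana recognises XEG1 outside the cell. Receptor-like proteins have no kinase domain of their own and signal together with receptor kinases such as SOBIR1, and the ensuing immune response includes large changes in transcription.

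The study treated 12-day-old whole seedlings of 7 genotypes for 3 h, with 2 libraries in each of 14 groups. Beside wild type there were knockouts of rxeg1 and of sobir1/sobir1-like, and 4 lines in the rxeg1 background, each with an RXEG1syn construct that has ΔCT and the RXEG1 promoter. ΔCT line 1 and ΔCT line 2 carry RXEG1synΔCT with no further change. The construct of the line described here also lacks residues 90 to 95 and carries the substitutions Q786A and K791A, and that of the Δ90-95/Δ786-792 line lacks the same residues and the second stretch that its name gives. The control is called EV in the titles and mock in the treatment label, and both names were taken as the same control. It is the only line with its construct in the study, so the construct and the individual line cannot be told apart. Whether replicates were separate plants is not in the labels, so a p-value reflects only how far these libraries spread, which may be technical. Whole seedlings hold many cell types, and fewer cells of a type cannot be told apart from less RNA per cell. Gene identifiers came without names, so the level of the construct, the knocked-out gene, known immune genes and tissue markers were not analysed here.

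The 4 libraries of the line were similar in composition. Between 35137 and 36669 genes reached 1 TPM, 15561 to 16058 were listed at 0, and the 20 most abundant genes took 4.79% to 6.82% of the TPM. Sequencing depth is unknown, because TPM keeps none. Across genes, log2(TPM + 1) correlated at 0.973 between the 2 mock libraries and at 0.965 between the 2 XEG1 libraries. The mock and XEG1 libraries that share a replicate number correlated more closely, at 0.984 for replicate 1 and 0.975 for replicate 2. These correlations are over the 36777 genes that average 1 TPM or more over all 28 libraries, which are not independent of each other.

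XEG1 moved few genes of the line beyond the spread between its replicates when the libraries were compared without regard to replicate number. Limma's moderated test on log2(TPM + 1) called 2 of 36206 genes at a Benjamini-Hochberg adjusted p under 0.05. Both calls were higher after XEG1, which is 0.00552% of the genes tested, and 0 were lower (0%). An unadjusted p under 0.05 was found for 968 genes. Over all tested genes the median log2 change was 0.01 and the median standard error of a gene's change was 0.24. Both XEG1 libraries lay above both mock libraries for 4782 genes (13.2%) and below both for 3173 genes (8.76%). Leaving out mock replicate 1 gave 84 calls and mock replicate 2 gave 64, while XEG1 replicate 1 gave 8 and XEG1 replicate 2 gave 4. In an exact two-sided permutation test, 2 libraries against 2 cannot give a p below 0.333, so the calls rest on the variance that limma shares between genes. Without a pair term, limma on another genotype's own 4 libraries called 393 genes in ΔCT line 2, 6 in sobir1/sobir1-like and 1 in ΔCT line 1. It called 0 in rxeg1 and in the Δ90-95/Δ786-792 line, and 19005 in wild type.

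Both genes called in the line ranged from 0 to well above 5 TPM in mock and XEG1 libraries alike in the other genotypes. Niben101Scf01020g01002 was listed at 0 in both mock libraries of the line and held 41.2 and 28.01 TPM in its XEG1 libraries (limma, adjusted p 0.0126). Over the other 24 libraries it was listed at 0 in 13, and over all 28 it was listed at 0 in 8 of 14 mock and 7 of 14 XEG1 libraries. In the remaining 13 libraries it held 12.2 to 54.0 TPM, with no value between 0 and the lowest of these. Niben101Scf01881g02018 was listed at 0 in both mock libraries and held 16.5 and 19.6 TPM after XEG1 (limma, adjusted p 0.0149). It was listed at 0 in 8 of the other 24 libraries and held 15.04 to 25.02 TPM in the 18 libraries where it was above 0. Both genes were listed at 0 in one library and well above 5 TPM in the replicate of the same group in other genotypes, so a listed 0 may be a failed estimate and no fold is given. Without the 123 tested genes (0.34%) that show this in some group, a criterion chosen after the values were seen, limma called 0 genes.

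**Figure D1:**
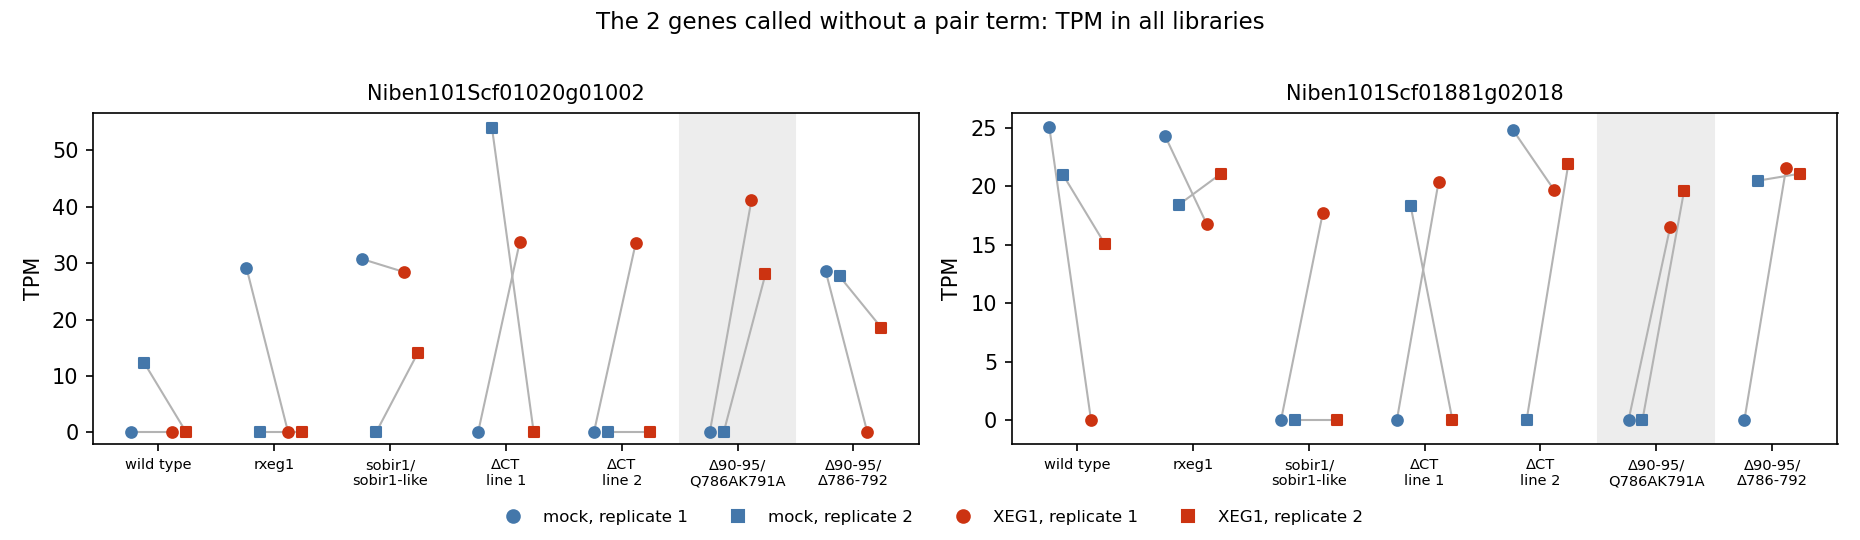
TPM of the 2 genes called without a pair term, in each of the 28 libraries (y axis, TPM; x axis, genotype, with the Δ90-95/Q786AK791A line shaded). Circles are replicate 1 and squares replicate 2, blue is mock and red is XEG1, and grey lines join libraries that share a replicate number. Values are either 0 or at least 12.2 TPM, in both treatments.

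Without a pair term, no gene of the line was called lower. The genes nearest to a call by the naming rule, neither of which was called in that fit, were also of this on-or-off kind. Niben101Scf01190g01002 held 9.31 and 14.7 TPM in the mock libraries and was listed at 0 in both XEG1 libraries (limma, adjusted p 0.0859), and it was listed at 0 in 7 of the 28 libraries. Niben101Ctg04970g00001 held 5.33 and 4.23 TPM in mock and was listed at 0 after XEG1 (limma, adjusted p 0.269), and it was listed at 0 in 23 of 28 libraries. Over all genes, 8 were listed at 0 in both mock libraries and at 1 TPM or more in both XEG1 libraries, and 7 showed the reverse. Of these, 3 and 3 were among the genes with erratic zeros. None of the 8 genes rose in wild type, and 2 of the 7 fell there. The same pattern occurred between the replicate numbers, where 16 genes were listed at 0 in both libraries of replicate 1 only and 6 in both libraries of replicate 2 only.

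The replicate number went with larger differences in the line than the treatment did. Of the sum of squares around the gene means over its 4 libraries, 25.3% lay between XEG1 and mock, 56.6% between replicate 2 and replicate 1, and 18.1% in the remainder. In wild type the treatment took 90.4%, against 47.0% for ΔCT line 2, 33.0% for sobir1/sobir1-like, 27.1% for ΔCT line 1, 16.2% for the Δ90-95/Δ786-792 line and 9.78% for rxeg1. With a pair term for the replicate number, limma called 5875 genes (16.2%) between replicate 2 and replicate 1 of the line, 4939 higher (13.6%) and 936 lower (2.59%) in replicate 2. The change after XEG1 in replicate 1 and that in replicate 2 correlated across genes at 0.21, and with the numbers crossed at -0.32. The labels do not say whether a number marks a shared tray, day or extraction, so whether the numbers pair the libraries was not settled. Across genes, the deviations of same-numbered mock and XEG1 libraries from their group means correlated at 0.50 in the line. This correlation was 0.73 in rxeg1, 0.54 in the Δ90-95/Δ786-792 line, 0.35 in sobir1/sobir1-like and 0.17 in wild type, and it was near 0 in ΔCT line 1 (-0.02) and ΔCT line 2 (-0.003).

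**Figure D2:**
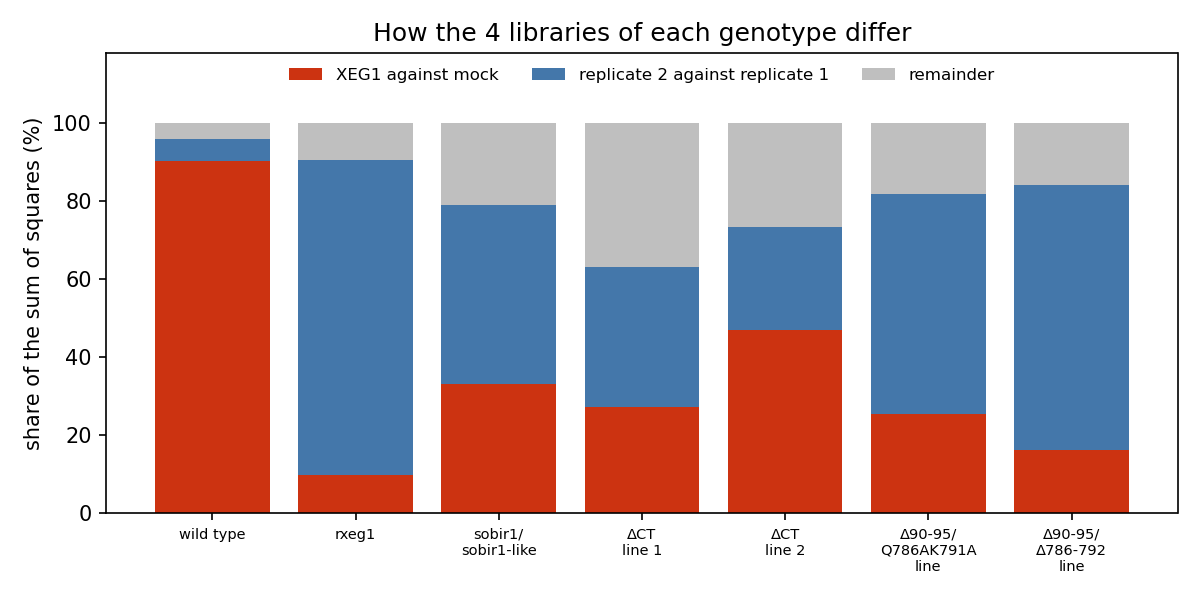
Share of the sum of squares of log2(TPM + 1) over the 4 libraries of each genotype (y axis, percent; x axis, genotype), divided into XEG1 against mock, replicate 2 against replicate 1, and the remainder. In the Δ90-95/Q786AK791A line 25.3% goes with XEG1 and 56.6% with the replicate number, against 90.4% and 5.45% in wild type. The totals differ between genotypes, so the bars show shares and not sizes.

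Treating the replicate number as a pair within the line gave many more calls. Limma then called 1003 genes (2.77%), 572 higher (1.58%) and 431 lower (1.19%) after XEG1, with 2824 at an unadjusted p under 0.05. Of these, 192 higher and 159 lower genes changed by at least 1 on the log2 scale. This fit leaves 1 residual degree of freedom, and limma replaced the variance of nearly all genes by the trend shared with genes of the same level, so a gene's own spread had almost no part in its p. The count fell to 122 after median-ratio scaling of the 4 libraries. By the naming rule the largest changes here were the erratic genes Niben101Scf01020g01002, Niben101Scf01881g02018 and Niben101Scf01190g01002, and Niben101Scf15393g00005. A count of this size was not particular to the line. The same pair fit on another genotype's own libraries called 979 genes in sobir1/sobir1-like and 801 in ΔCT line 2. It called 22 in ΔCT line 1, 10 in rxeg1, 0 in the Δ90-95/Δ786-792 line and 20845 in wild type.

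A pair term in each genotype, fitted over all 28 libraries, has 7 residual degrees of freedom and lets each gene's own spread count. This fit was added after the data were examined. Of 36777 genes, limma called 75 in the line (0.204%), 42 higher (0.114%) and 33 lower (0.0897%), and 2475 had an unadjusted p under 0.05. None of the 75 genes had erratic zeros, beside 0.34% of the genes tested in the line. Such zeros widen a gene's spread in this fit, to a standard error of 2.75 at Niben101Scf01020g01002, so their absence is no check on the calls. The pair fit of the line's own libraries also called 41 of the 42 higher and all 33 lower genes. Both fits take the change from the same 4 libraries, so this overlap is no separate support. The fit with a pair term in each genotype called 23335 genes in wild type, 0 in rxeg1 and in sobir1/sobir1-like, 47 in ΔCT line 2 and 1 each in ΔCT line 1 and the Δ90-95/Δ786-792 line. Without any pair term it called 0 genes in the line (0% higher, 0% lower, 0% in all), with 1290 at an unadjusted p under 0.05. With the pair term, median-ratio scaling or no filter on low values each left 1 gene. Without the wild-type libraries it called 17. Leaving out 1 library of the line is no separate check here, because the pair term then takes up the library of the same number. The change rests on the other pair alone, and its spread on the other genotypes. The median log2 change over all genes was then 0.098 without either library of replicate 1 and -0.053 without either of replicate 2.

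The gene called under every setting tried with a pair term in each genotype was Niben101Scf15393g00005, chosen for naming after its values were seen, as were the other 3 genes described next. It held 36.4 and 25.7 TPM in the mock libraries of the line and 4.37 and 1.60 TPM in the XEG1 libraries. The treatments did not overlap, and the mean fell from 31.0 ± 7.52 to 2.98 ± 1.96 TPM (SD, n = 2). The log2 change was -3.08 (SE 0.23, adjusted p 0.000266 by limma with a pair term in each genotype), and -2.80 and -3.36 in replicates 1 and 2. This gene was lower after XEG1 in all 14 pairs of same-numbered libraries of the study, the rxeg1 knockout included, where it went from 6.09 to 1.37 TPM and from 4.86 to 1.30 TPM. Its log2 change in rxeg1 was -1.47, and the difference between the line and rxeg1 was -1.62 with a standard error of 0.73 (limma, adjusted p 1).

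The other gene named for its fall was Niben101Scf04081g02015, with 28.1 and 19.3 TPM in mock and 6.26 and 2.50 TPM after XEG1. Its log2 change was -2.27 (SE 0.36, adjusted p 0.0456 by limma with a pair term in each genotype), beside -2.38 in wild type. It was lower in the XEG1 library in 11 of the 12 same-numbered pairs of the other genotypes, and in rxeg1 its log2 change was -0.95. The 2 mock libraries of the line held the highest levels of both genes in the study.

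Among the genes that rose, Niben101Scf08390g03006 held 1.99 and 0.89 TPM in the mock libraries and 19.5 and 12.5 TPM in the XEG1 libraries. The mean rose from 1.44 ± 0.78 to 16.0 ± 4.95 TPM (SD, n = 2), a log2 change of 2.81 (SE 0.46, adjusted p 0.048 by limma with a pair term in each genotype). In wild type the same gene held 2.71 and 3.22 TPM in mock and 833 and 868 TPM after XEG1. Its change in ΔCT line 2 was 2.52, in ΔCT line 1 0.83 and in rxeg1 0.52 on the log2(TPM + 1) scale. Niben101Scf04040g08009 held 0.62 and 0 TPM in mock and 4.69 and 4.17 TPM after XEG1, a log2 change of 2.09 (SE 0.35, adjusted p 0.0456 in the same limma fit), beside 3.34 in wild type. XEG1 levels lay above mock levels in both replicates of the line for these 2 genes, at a level far below that of treated wild type for the first of them. Neither call held with a pseudocount of 0.1 (limma, adjusted p 0.35 and 0.12) or without the filter (0.083 and 0.093). Both were also lost after median-ratio scaling (0.059 and 0.076) and without the wild-type libraries (0.086 and 0.066).

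**Figure D3:**
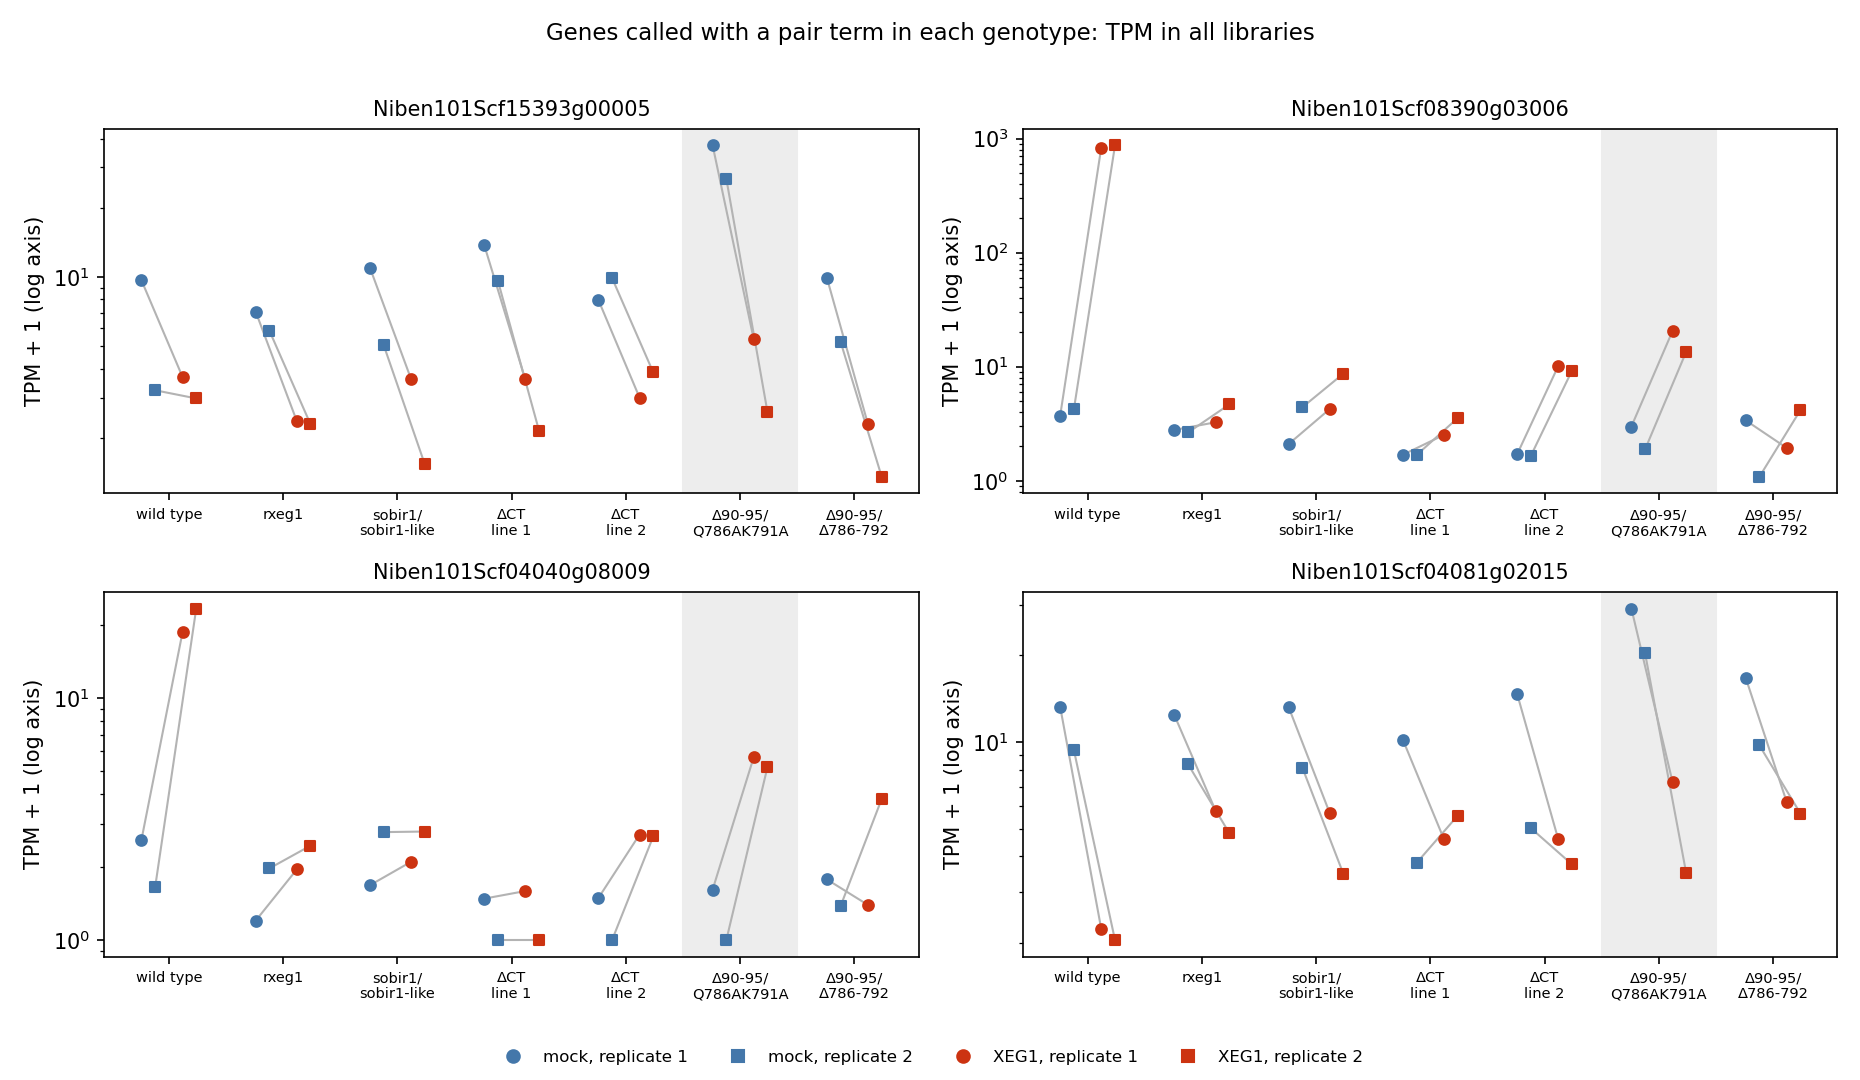
TPM + 1 (y axis, log scale) of the 4 genes named from the fit with a pair term in each genotype, in all 28 libraries by genotype (x axis, the Δ90-95/Q786AK791A line shaded). Circles are replicate 1 and squares replicate 2, blue is mock and red is XEG1, and grey lines join same-numbered libraries. Niben101Scf15393g00005 falls along every line in the plot, and Niben101Scf08390g03006 reaches 12.5 to 19.5 TPM in treated libraries of the line against 833 and 868 TPM in treated wild type.

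Most genes called higher in the line had also risen in wild type. The wild-type list came from a limma fit of the 4 wild-type libraries, which share no sample with the line. It held 5077 risen genes (14.2%) and 13928 fallen genes (39%), together 53.2% of the 35700 tested there. After median-ratio scaling 7449 genes were risen and 6244 fallen, so which list is longer depends on the scaling. The fit that called the 42 higher and 33 lower genes used all 28 libraries, wild type included, for its filter and spread. These lists are therefore not fully separate from the wild-type list, and 17 genes were called without the wild-type libraries. Of the 42 higher genes, 37 were risen in wild type (88.1%), 1 was fallen and 4 were neither. Among the 34309 genes tested both in wild type and in the line's own 4 libraries, 12.2% were risen. The fit of 28 libraries held 35026 genes tested in wild type, of which 4586 were risen and 13894 fallen. For these 42 genes the median log2 change was 1.37 in the line, from 0.73 to 2.81, and 4.31 in wild type. Of the 33 lower genes, 31 were tested in wild type, and of these 22 were fallen (71.0%, against 40.2% of all genes tested in both), 3 were risen and 6 were neither. Their median log2 change was -1.48 in the line and -1.22 in wild type. The 42 genes made up 0.729% of the wild-type risen list by their 37 members in it, and the 22 made up 0.158% of the fallen list. For the larger lists of the line's own pair fit, 394 of the 528 higher genes tested in wild type were risen (74.6%) and 292 of 384 lower genes were fallen (76.0%).

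Some of these genes also had treatments without overlap in the other genotypes, although the same fit called few or no genes there. In ΔCT line 2 both XEG1 libraries lay above both mock libraries for 42 of the 42 higher genes, where 21.2% of the genes tested in the line did so. This held for 35 of 42 in ΔCT line 1 (83.3%, against 19.1%), 21 in sobir1/sobir1-like (against 16.8% of all genes), 17 in the Δ90-95/Δ786-792 line (40.5%, against 10.4%) and 14 in rxeg1 (33.3%, against 7.53%). For the 33 lower genes both XEG1 libraries lay below both mock libraries for 31 in ΔCT line 2 (93.9%, against 14.4%) but for 5 in ΔCT line 1 (15.2%, against 6.55%). They did so for 19 in sobir1/sobir1-like (57.6%, against 14.9%), 17 in rxeg1 (51.5%, against 5.31%) and 15 in the Δ90-95/Δ786-792 line (45.5%, against 7.4%). The median log2 change of the higher genes was 0.23 in rxeg1, 0.44 in sobir1/sobir1-like, 1.05 in ΔCT line 2, 0.50 in ΔCT line 1 and 0.34 in the Δ90-95/Δ786-792 line. That of the lower genes was -0.43, -0.71, -0.88, -0.30 and -0.41 in this order. The fit took its estimate of the spread from these same libraries, so these counts are descriptions.

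Grouped by their change in wild type, genes with a larger wild-type rise had a larger median change in the line. The 135 genes with a wild-type log2 change over 5 changed by a median log2 of 0.69 in the line, 0.70 in replicate 1 and 0.72 in replicate 2. Both XEG1 libraries lay above both mock libraries for 92 of them (68.1%, against 14% of all 35700 genes tested in wild type) and below both for 0 (against 8.67%). For the 575 genes with a wild-type change of 3 to 5 the median was 0.35, for the 2704 genes at 1 to 3 it was 0.15, and for all genes it was 0.02. At the other end, the 198 genes with a wild-type change under -3 had a median of -0.23, made of -0.53 in replicate 1 and 0.04 in replicate 2. Both XEG1 libraries lay below both mock libraries for 35.4% of these 198 genes and above both for 4.04%. The replicates thus differed in sign for the strongly fallen genes and had the same sign for the strongly risen ones. Across the 34309 genes tested in both genotypes, the log2 changes in the line and in wild type had a Pearson r of 0.39 and a Spearman rho of 0.28, given without a p because genes are not independent.

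**Figure D4:**
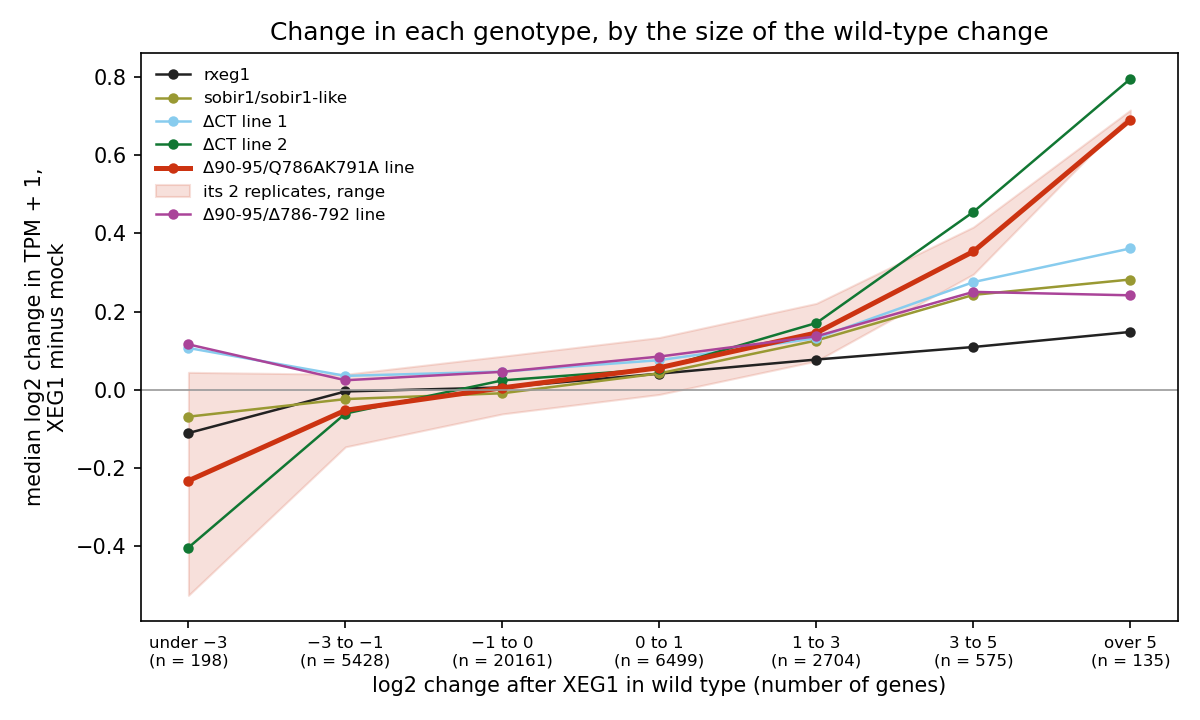
Median log2 change in TPM + 1 after XEG1 (y axis) in 6 genotypes, for genes grouped by their log2 change in wild type (x axis, with the number of genes in each group). The red band spans the medians of the 2 replicates of the Δ90-95/Q786AK791A line, which reaches 0.69 for the 135 genes with a wild-type change over 5, against 0.80 in ΔCT line 2 and 0.15 in rxeg1.

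The 135 genes varied widely among themselves in the line. Their log2 changes ran from -0.21 to 2.98, with quartiles of 0.25 and 1.503, and 52 of them changed by at least 1 and 14 by at least 2. The median ratio of a gene's change in the line to its change in wild type was 11.7%, on the log2(TPM + 1) scale. The median level of the 135 genes was 0.679 and 0.381 TPM in the mock libraries of the line and 2.25 and 1.63 TPM in its XEG1 libraries, against 174 and 164 TPM in treated wild type. Of the 135 genes, 71 passed the limit of 1 TPM in the line. Over these 71 the median change was 1.47, with 1.25 in replicate 1 and 1.47 in replicate 2, and both XEG1 libraries lay above both mock libraries for 84.5%. A low gene passes that limit more readily when its treated level is high, so these values are a description and not support. The fit with a pair term in each genotype called 17 of the 135 higher in the line, where it called 0.114% of all genes, and 0 lower, where it called 0.0897%. Of the 17, 16 were among the 71.

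The median change of these 135 genes in the line lay near that in ΔCT line 2 and above those in the other construct lines. This is a description of changes, not levels, over genes that share their libraries. In ΔCT line 2 the median was 0.80 and both XEG1 libraries lay above both mock libraries for 82.2% of the 135 genes (against 21.9% of all genes). In ΔCT line 1 the median was 0.36 with 56.3% (against 19.5%), in sobir1/sobir1-like 0.28 with 31.9% (against 17.4%), in the Δ90-95/Δ786-792 line 0.24 with 28.1% (against 11%) and in rxeg1 0.15 with 36.3% (against 7.82%). The replicates of the Δ90-95/Δ786-792 line gave medians of -0.0004 and 0.52, so its 2 values lay farther apart than those of the line. For the 198 strongly fallen genes, both XEG1 libraries lay below both mock libraries for 58.6% in ΔCT line 2 (against 14%), 8.59% in rxeg1 (against 5.36%), 19.2% in sobir1/sobir1-like (against 14.3%), 4.04% in the Δ90-95/Δ786-792 line (against 7.39%) and 0.505% in ΔCT line 1 (against 6.26%). The medians of these 198 log2 changes were -0.40 in ΔCT line 2, -0.11 in rxeg1 and -0.07 in sobir1/sobir1-like, and they were above 0 in the Δ90-95/Δ786-792 line (0.12) and ΔCT line 1 (0.11).

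**Figure D5:**
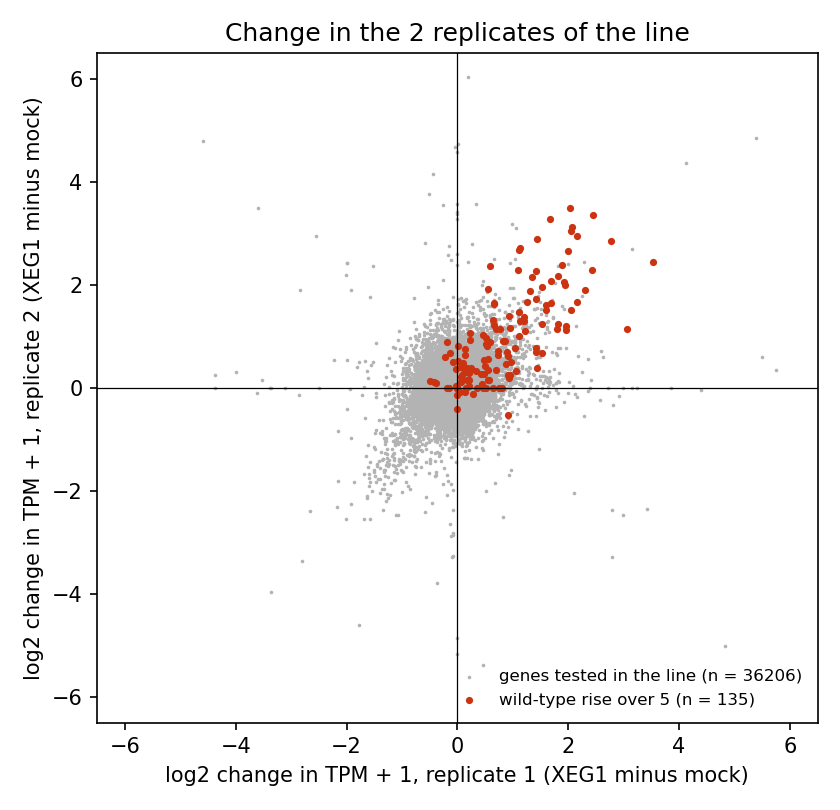
Log2 change in TPM + 1 after XEG1 in replicate 1 (x axis) and in replicate 2 (y axis) of the Δ90-95/Q786AK791A line, 1 point per gene. Grey points are the genes tested in the line and red points the 135 genes with a wild-type log2 change over 5, whose medians are 0.70 in replicate 1 and 0.72 in replicate 2.

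Taken over all genes risen in wild type, the change in the line was small. The median log2 change of the 5077 genes was 0.14 in the line, 0.08 in replicate 1 and 0.22 in replicate 2, and both XEG1 libraries lay above both mock libraries for 1790 of them (35.3%, against 14% of all genes). They held 6.75% and 5.99% of the TPM in the mock libraries of the line and 7.51% and 7.57% in its XEG1 libraries. In wild type the same genes held 9.10% and 9.04% in mock and 37.1% and 39.4% after XEG1. The 13928 genes fallen in wild type had a median of -0.02 in the line, -0.10 in replicate 1 and 0.07 in replicate 2, and both XEG1 libraries lay below both mock libraries for 1759 (12.6%, against 8.67% of all genes). That median was above 0 without XEG1 replicate 1 of the line (0.098) or without its mock replicate 2 (0.0045).

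The strongest responders of wild type differed in how much they changed in the line. Niben101Scf00354g01012 went from 0.72 and 0.23 TPM to 670 and 769 TPM in wild type. In the line it held 1.38 and 0.13 TPM in mock and 4.16 and 2.13 TPM after XEG1, without overlap. Its log2 change in the line was 1.29 (SE 0.19, adjusted p 0.0318 by limma with a pair term in each genotype). Niben101Ctg08590g00001 went from 0.080 and 0.18 TPM to 564 and 790 TPM in wild type, and in the line held 0.40 and 0 TPM in mock and 0 and 0.097 TPM after XEG1, where the groups overlapped. The largest wild-type fall was that of Niben101Scf24053g00003, from 231 and 189 TPM to 3.87 and 1.66 TPM. In the line this gene held 122.1 and 120.1 TPM in mock and 86.1 and 106 TPM after XEG1, a log2 change of -0.34 (SE 0.17) that limma did not call (adjusted p 1).

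The response of the line was then tested against that of other genotypes in a single limma fit of all 14 groups. These were wild type, rxeg1, the mean of both ΔCT lines and the remaining construct line. A difference from sobir1/sobir1-like, or from either ΔCT line alone, was not tested. Against wild type, 10986 of 36777 genes differed (29.9%), of which 8017 had a higher log2 change in the line (21.8%) and 2969 a lower one (8.07%). Higher differences were 73.0% of these calls, and 39.2% after median-ratio scaling, which called 8519 genes and moved the median difference of all genes from 0.39 to -0.02. Without wild-type XEG1 replicate 2 the count was 7179. The largest lower differences by the naming rule were at Niben101Ctg08590g00001, at -9.39 (SE 0.28, adjusted p 7.56e-14), and at Niben101Ctg13347g00002, at -8.90 (SE 0.26, adjusted p 7.56e-14 by limma). The latter went from 0 and 0.11 TPM to 410.4 and 540 TPM in wild type and held at most 0.14 TPM in any library of the line. The difference at Niben101Scf24053g00003 was 5.53 (SE 0.40, adjusted p 1.24e-08 by limma).

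Against the other genotypes of the rxeg1 background, with the ΔCT lines taken as their mean, no difference in response was called. Limma called 0 genes against rxeg1 (0%), with 396 at an unadjusted p under 0.05, 0 against the mean of ΔCT line 1 and ΔCT line 2 (0%), with 284, and 0 against the Δ90-95/Δ786-792 line (0%), with 495. The median standard error of a difference was 0.33 against a single genotype and 0.29 against the mean of both ΔCT lines, so the missing calls do not show that the responses were alike. Fitted with a pair term within each of the compared genotypes only, the difference from rxeg1 was called for 31 genes, and that from the ΔCT lines for 1. Both counts were 0 with a pair term in each genotype over all 28 libraries, the fit that called 75 genes in the line, and 0 with a replicate block common to all genotypes. Without XEG1 replicate 2 of the line, limma called 5 genes against rxeg1, 5 against the ΔCT lines and 4 against the Δ90-95/Δ786-792 line. At Niben101Scf08390g03006 the difference was 2.29 from rxeg1 (SE 0.66), 1.13 from the mean of both ΔCT lines (SE 0.58) and 2.24 from the Δ90-95/Δ786-792 line (SE 0.66), each with an adjusted p of 1 (limma). Against wild type it was -4.94 (SE 0.66, adjusted p 2.21e-05 by limma).

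The level of a gene had little bearing on its median change in the line. From 1 to 3 TPM up to 100 TPM and more, the medians of 5 bands of mean TPM lay between 0.01 and 0.02. The SD over genes of the log2 change was 0.32 in the lowest band and 0.19 in the highest. For the difference in level between replicate 2 and replicate 1, the SD over genes was 0.42 and 0.21. Of the genes called with a pair term in each genotype, 10 higher and 8 lower ones lay among the 7305 genes of the lowest band. There were 7 and 13 among the 12685 genes at 3 to 10 TPM, and 14 and 9 among the 10049 at 10 to 30 TPM. The 4460 genes at 30 to 100 TPM held 9 and 3, and the 1707 of the highest band 1 and 0. Over all genes of that fit, 0.114% were called higher and 0.0897% lower.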

How the data were processed

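Whole seedlings were profiled by RNA sequencing in 28 libraries, of which 4 belong to the Δ90-95/Q786AK791A line. RNA (1 µg) was made into MGIEasy libraries, per the labels' protocols. HISAT2 2.0.4, a spliced aligner, is named per the submitters' processing notes. The genome build, the annotation, the counting step and the treatment of reads shared between gene copies remain not given in the sources used here. The authors deposited TPM per gene for each library, and each list was checked to sum to 1e+06. TPM has a fixed total, so a gene's value also moves with all others. Depth is unknown, and no count test was possible.

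Values were analysed as log2(TPM + 1), which understates changes of low genes. Limma 3.58.1 (trend and robust; R 4.3.3, statmod 1.5.0, version 1.17.8 of data.table) was fitted across all genes that average 1 TPM or more in the fitted libraries, and genes with an adjusted p under 0.05 (Benjamini-Hochberg) were called. Fits used the line's 4 libraries, the same with the replicate number as a pair term (as the comparison asks), all 28 libraries as 14 group means, and, added later, all 28 with a pair term in each genotype. The wild-type lists came from the 4 wild-type libraries. The fits of the line's 4 libraries, with and without the pair term, were tested on simulated data for the size of known changes. The fits of all 28 libraries were not tested in this way. Figures used matplotlib 3.10.9 and pandas 2.3.3.

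Named genes were at most 2 each way in a comparison, by log2 change among called genes whose groups did not overlap and whose mean log2(TPM + 1) was above 1, filled by the smallest p where fewer were called. Other named genes are said to be chosen after their values were seen. Members and lists were chosen with earlier results of these data known. Lists by function or cell type were not analysed here. Alternatives were a pseudocount of 0.1, no filter, median-ratio scaling, a log2 threshold of 1, other groups in the fit, replicate blocks, removal of genes with erratic zeros (0 in a library and at least 5 TPM in its replicate), and leaving out each library in turn.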

Additional observations from a re-analysis of the deposited data

Results flagged for a closer look

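The response of the Δ90-95/Q786AK791A line differed from that of wild type, by a limma test of the difference itself, in 10986 genes. Among the genes named, the line had the lower log2 change at Niben101Ctg08590g00001 (-9.39) and Niben101Ctg13347g00002 (-8.90), and the higher one at Niben101Scf24053g00003 (5.53). Niben101Scf13085g00001 was also called, at 7.49 (SE 2.26, limma, adjusted p 0.019), but it is listed at 0 in both treated wild-type libraries and in 18 of all 28 libraries, so this value is no measure of a fold. Its call was lost with a replicate block within each genotype (limma, adjusted p 0.0803 over 28 libraries and 0.152 in the compared groups), with only the compared groups (0.0544) and without XEG1 replicate 2 of the line (0.114). It held 37.5 and 34.1 TPM in wild-type mock, was listed at 0 in both mock libraries of the line, and held 0 and 23.0 TPM in its XEG1 libraries.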

How the results depend on the processing

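Without a pair term, 2 genes were called in the line. With no filter, with all 14 groups in the fit or without genes of erratic zeros 0 were, and with 1 library left out 4 to 84. The library left alone in its group was then given the spread of the other group. The replicate block within the line gave 1003 calls and the block within each genotype 75. The 1003 became 122 with median-ratio scaling, 351 with the log2 threshold, 57 with a replicate block common to all genotypes and 2 with no replicate block. The 75 became 37 with a pseudocount of 0.1, 1 with no filter or with scaling, 4 to 14 with 1 library left out, 17 without wild type and 0 with no replicate block. The labels tie the numbers to nothing shared. Same-numbered libraries deviated together, at correlations of 0.17 to 0.73, in 5 of 7 genotypes and not in the 2 ΔCT lines, so the pairing was not settled.

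The median changes of the wild-type risen and fallen lists ranged from 0.10 to 0.20 and from -0.11 to 0.098 with 1 library left out. With median-ratio scaling, which made the lists 7449 and 6244 genes long, these medians were 0.09 and -0.07. The difference from wild type was called for 16630 genes with a replicate block within each genotype and for 7179 to 11074 with 1 library left out. Against rxeg1 fitting only the compared groups gave 1 call, adding the replicate block there 31 (0 over all 28 libraries), and leaving out 1 library 0 to 5. Against the ΔCT lines these were 1, 1 and 0 to 5, and against the Δ90-95/Δ786-792 line leaving out 1 library gave 0 to 4. No named gene's value reversed. Of the alternative values of the named genes, 131 kept their side of the threshold, 41 lost and 6 gained a call. Leaving out a library under the line's own pair fit was not run, since it leaves no residual degrees of freedom.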
